A study of Mus musculus with 6 samples.

Results

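Complement is a set of plasma and cell-surface proteins that tags cells, synapses and microbes for removal. The transcripts of 9 of its genes were followed in wild-type mouse retina: C1qa, C1qb, C1qc, C4b and C3 on the side that activates the cascade, and Serping1, Cfi, Cd55 and Cd59a on the side that restrains it. The genes were taken by symbol from the deposited tables, where 9 of 9 had a row among 15465 genes. The material was retina of C57BL6/J mice, all of wild-type genotype, with RNA of 5 mice pooled per library. The titles give 3 biological replicates, called pools here, with 2 technical replicates each, and both technical replicates of a pool share 1 column of values. The source names number the same 6 samples in another way that crosses the titles, so every SD below rests on the titles. The age of the mice is not given in the sources used here. No second genotype or treatment entered the comparisons, which are therefore between genes within a pool and between pools.

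In the classical pathway the recognition molecule C1q, built from the products of C1qa, C1qb and C1qc, binds its target and activates the proteases C1r and C1s. These cleave C4 and C2, and the resulting enzyme cleaves C3, whose fragment attaches to the target surface and opens the way to the terminal components. Serping1 encodes the inhibitor of C1r and C1s, Cfi the protease that inactivates the C3 and C4 fragments, Cd55 a membrane protein that breaks up the enzymes that cleave C3, and Cd59a a membrane protein that blocks the terminal pore. In the retina, C1q is known mainly as a product of microglia, the resident phagocytes, and complement is studied there in synapse removal and in degeneration.

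The genes for the C1q chains lie side by side. In the RefSeq annotation (GRCm38.p6) C1qb, C1qc and C1qa follow each other on chromosome 4 with no other protein-coding gene between them. RefSeq promoter windows (build GRCm38.p6) were matched by symbol for 5 of the 9 genes, C1qb, C1qc, C3, Cd55 and Cd59a. The 250 bases before the start of C1qb and C1qc are shown because these neighbours were both highest in pool 2, and that of Cd59a because it was the most abundant of the 9. Capitals mark GAGGAA on either strand, a purine-rich core of the kind bound by the myeloid factor PU.1. The windows are chr4:136886201-136886450 on the minus strand for C1qb, chr4:136892915-136893164 on the minus strand for C1qc and chr2:104095551-104095800 on the plus strand for Cd59a.
C1qb: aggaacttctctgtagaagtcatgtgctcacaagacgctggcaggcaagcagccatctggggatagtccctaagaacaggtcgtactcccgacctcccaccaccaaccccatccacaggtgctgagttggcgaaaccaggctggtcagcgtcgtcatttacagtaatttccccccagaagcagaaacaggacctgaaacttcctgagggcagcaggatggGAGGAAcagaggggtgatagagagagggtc
C1qc: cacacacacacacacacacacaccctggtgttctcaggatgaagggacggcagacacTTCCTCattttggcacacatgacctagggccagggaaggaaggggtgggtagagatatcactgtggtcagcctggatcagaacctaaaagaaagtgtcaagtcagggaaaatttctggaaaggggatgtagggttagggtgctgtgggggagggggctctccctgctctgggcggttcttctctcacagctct
Cd59a: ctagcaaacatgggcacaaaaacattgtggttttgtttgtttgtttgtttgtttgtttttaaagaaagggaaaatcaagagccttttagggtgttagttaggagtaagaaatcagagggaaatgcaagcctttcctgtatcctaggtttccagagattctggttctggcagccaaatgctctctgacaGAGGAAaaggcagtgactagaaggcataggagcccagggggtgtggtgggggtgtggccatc
The motif occurred once in each of these 3 windows and not in those of C3 and Cd55. It is common, with 23.3% of 32851 promoter windows of the same length holding it. The letters TATAAA (12.4% of windows) and TTCNNNGAA (7.02% of windows) were in none of the 5. The C1qb window held 6 CpG dinucleotides, equal to the median over all windows, against 2 for C1qc, 1 for C3, 8 for Cd55 and 0 for Cd59a. A match is a description of the letters only.

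C3 and C4b come from related genes on chromosome 17, and their proteins both attach to surfaces through an internal thioester bond. The coding stretches around that site, from GENCODE M21 transcripts (build GRCm38), are shown because the levels of these genes are compared below. The capitals mark 5 codons that include the bonded cysteine and glutamine, starting at codon 1009 of C3 and codon 1005 of C4b.
C3: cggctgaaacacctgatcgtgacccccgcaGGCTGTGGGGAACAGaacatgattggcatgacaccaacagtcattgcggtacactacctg
C4b: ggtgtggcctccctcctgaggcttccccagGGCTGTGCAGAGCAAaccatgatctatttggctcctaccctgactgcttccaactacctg
Of these 90 bases, 49 were the same in both. Over whole coding sequences, 0% of the 50-base windows of C3 occurred in a GENCODE M21 transcript of another gene. For C4b the share was 35.5%, all with its neighbouring copy C4a, and for Cd55 29.4%, all with Cd55b. The other 6 genes also had 0%. How reads that fit more than 1 gene were counted is not given in the sources used here, so C4b and Cd55 are less certain than the rest.

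The tissue label was checked against markers. Pde6g, a subunit of the rod phosphodiesterase, had 2242, 2871 and 1876 RPKM in pools 1, 2 and 3, and the 8 rod markers differed by at most 0.05 from their mean on the log2 scale (median of members, after scaling). Markers of neighbouring tissues differed more between pools. Medians of marker lists, here and below, cover only the members averaging at least 1 RPKM. Lens markers stood at -0.04, -0.99 and 1.04 in pools 1, 2 and 3, skeletal muscle markers at -0.29, 1.00 and -0.71, and pigment epithelium and melanocyte markers at 0.27, 0.19 and -0.38. The values are taken as RPKM (reads per kilobase of transcript, scaled to library size), a unit inferred from the files, and sum to 275995, 302634 and 249532. The read depth is not given in the sources used here. In bulk tissue, fewer cells of a type and less RNA per cell cannot be told apart.

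A property of the tables touches 3 of the 9 genes. Where a symbol equals another symbol followed by a digit and any further text, some rows disagree between pools by large factors. The C2 gene had 1.27, 1.14 and 17.26 RPKM, and C230096C10Rik, whose symbol begins with C2 and a digit, had 29.62, 29.39 and 3.21. Cd6 had 7.88, 9.74 and 0.00, and Cd63 had 0.05, 0.07 and 18.04. Such symbols made up 15.5% of all genes (2403), and C3, Cd55 and Cd59a are among them, C3 through rows such as C330007P06Rik and the other two through Cd5. Their own rows did not jump between pools. A displacement shared by all 3 pools would not show in this way, as with calreticulin (Calr, a broadly expressed chaperone) at 0.19, 0.25 and 0.24 RPKM beside Calr3 at 133.25, 168.08 and 105.46. Whether this happened for C3, Cd55 or Cd59a was not tested, and their levels carry that limit.

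The transcripts of the 9 genes were low to moderate in the retina, and the restraining genes among them stood at both ends of their range. Cd59a was highest of the 9 and Cd55 lowest, 67.2-fold apart in mean RPKM. The C1q chains and Serping1 lay close together below Cd59a, and C4b, C3 and Cfi followed at lower levels. A level of 1 RPKM or more in every pool was reached by 5 of the 9 genes, against 77.5% of all genes. The median of the 9 means was 4.04 RPKM, and that of all genes 6.26 RPKM. None was listed at 0 in any pool.

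**Figure D1:**
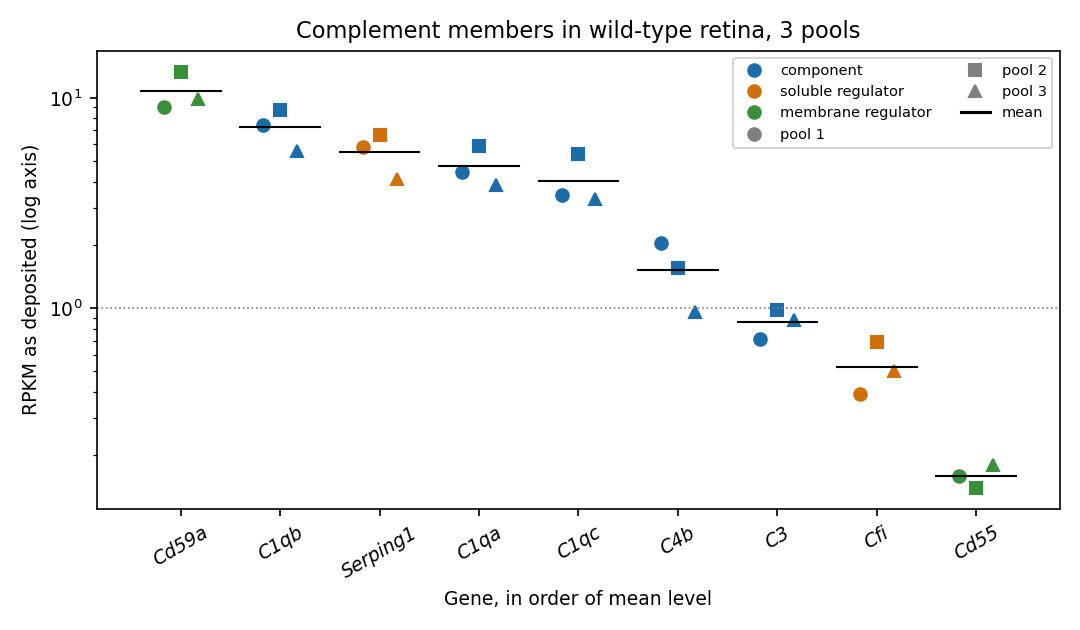
RPKM of the 9 complement genes (vertical axis, log scale) in each of 3 pools of wild-type retina, ordered by mean (black bar) and coloured by role. Cd59a, the C1q chains and Serping1 lie above the dotted line at 1 RPKM in each pool, C4b crosses it, and C3, Cfi and Cd55 lie below it in each pool.

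Among the C1q chains, C1qb was the most abundant. C1qb had 7.41, 8.75 and 5.57 RPKM in pools 1, 2 and 3 (7.24 ± 1.60, SD, n = 3). C1qa had 4.44, 5.88 and 3.84 RPKM (4.72 ± 1.05). C1qc had 3.46, 5.38 and 3.29 RPKM (4.04 ± 1.16). The chains kept the order C1qb, C1qa, C1qc in 3 of 3 pools, although the range of C1qa over pools overlapped those of C1qb and C1qc. Within a pool, C1qb exceeded C1qa 1.52-fold (0.61 ± 0.11 on the log2 scale) and C1qc 1.79-fold (0.84 ± 0.21). Such folds, here and below, are ratios of scaled RPKM plus 0.1, which lowers the ratios of weak genes. C1qa exceeded C1qc 1.17-fold (0.23 ± 0.11). The ratios varied less than the levels, and in each chain pool 2 was highest. With 3 pools an exact sign-flip test cannot give a p under 0.25, so the order within pools is given without a test.

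C4b, whose product is cleaved after C1 is activated, had 2.03, 1.56 and 0.96 RPKM (1.52 ± 0.536). It was highest in pool 1, unlike the C1q chains, and as deposited lowest in pool 3, like them. The geometric mean of the C1q chains exceeded C4b 2.33-fold, 3.97-fold and 4.01-fold in the 3 pools. Its copy C4a had 0.40, 0.38 and 0.36 RPKM, and C4b exceeded it 3.24-fold (1.69 ± 0.44 on the log2 scale).

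C3, on which all activation routes converge, had 0.71, 0.98 and 0.88 RPKM (0.857 ± 0.137), under 1 RPKM in each pool. The C1q chains exceeded it 5.45-fold (2.45 ± 0.28 on the log2 scale, n = 3). C4b exceeded it in 3 of 3 pools, but the log2 difference ran from 1.40 in pool 1 to 0.11 in pool 3, with a mean of 0.71 and an SD of 0.65.

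The regulators split by level. Serping1, the C1 inhibitor, had 5.85, 6.66 and 4.12 RPKM (5.54 ± 1.30), and stood at 1.20, 1.02 and 0.997 times the geometric mean of the C1q chains in pools 1, 2 and 3. These ratios (0.10 ± 0.15 on the log2 scale) were smaller than their SD, so Serping1 and the chains were not separated as a group. Its protease targets were low, with C1s at 0.69, 0.67 and 0.37 RPKM and C1ra at 0.23, 0.18 and 0.14. Serping1 exceeded C1s 8.42-fold (3.07 ± 0.14 on the log2 scale).

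Cfi, the protease that inactivates C3b, had 0.39, 0.69 and 0.50 RPKM (0.527 ± 0.152). It was lower than C3 in 3 of 3 pools, by a log2 difference of -0.63 ± 0.16.

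Cd59a had 9.04, 13.33 and 9.88 RPKM (10.8 ± 2.27), with no overlap with the values of C1qb. It exceeded the C1q chains 2.07-fold (1.05 ± 0.18 on the log2 scale). Cd55 had 0.16, 0.14 and 0.18 RPKM (0.160 ± 0.020). The ratio of Cd59a to Cd55 was 41.1-fold on the log2(RPKM + 0.1) scale, where the added 0.1 lowers ratios of weak genes. Both symbols are of the digit-bearing kind described above, and Cd55 shares sequence with Cd55b.

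In the order of means, Cd59a, C1qb, Serping1, C1qa, C1qc, C4b, C3, Cfi and Cd55, all 8 neighbouring pairs kept their order in 3 of 3 pools with a mean log2 difference above its SD. The narrowest were Serping1 over C1qa (1.17-fold, 0.22 ± 0.15) and C1qa over C1qc. That of C4b over C3 was weakest against its spread. The order was taken from these same pools, so its agreement with them is a description and not a test. As a group, the 4 regulators had a median of 3.04 ± 0.69 RPKM and the 5 activating genes 4.04 ± 1.16. On the log2 scale the medians differed by -1.13 ± 0.09 (regulators minus activating genes), a wider gap than in RPKM because the median of 4 regulators is the midpoint of Serping1 and Cfi, which the log draws towards Cfi. This direction turned to 0.45 without Cd55, so it is a property of which genes are counted.

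**Figure D2:**
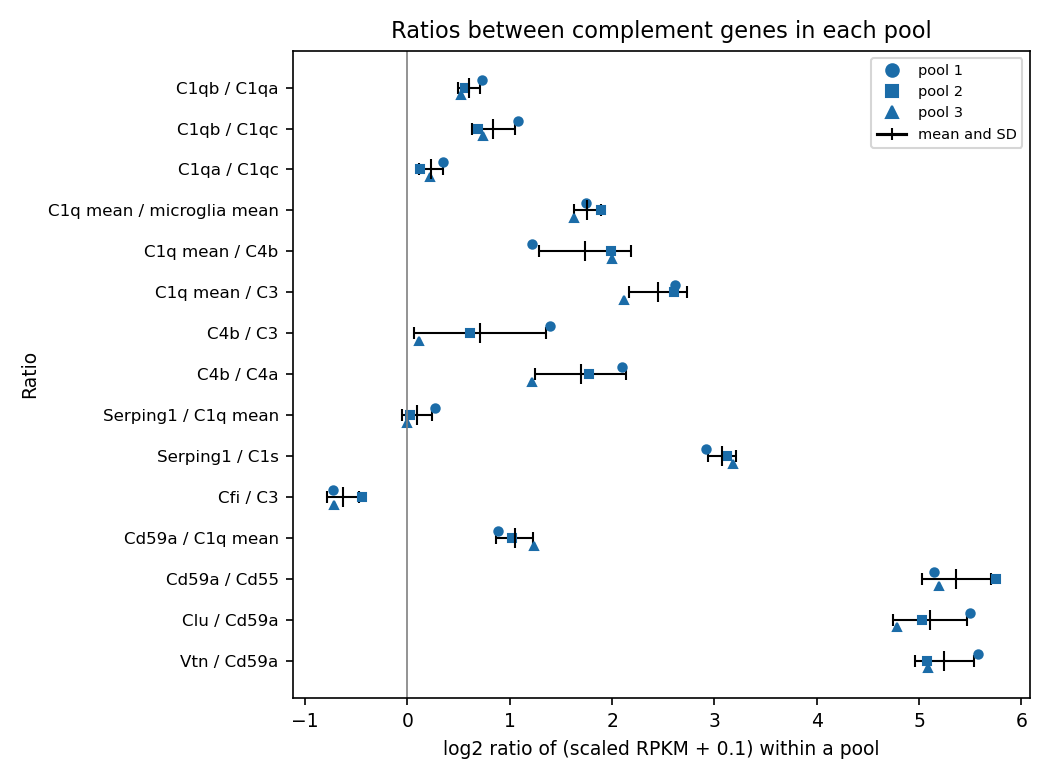
Log2 ratios between complement genes within each pool (horizontal axis, scaled RPKM plus 0.1), with the mean and SD over 3 pools. The ratios of the C1q chains and of Serping1 to the chains lie between -0.004 and 1.08, C4b to C3 spreads from 0.11 to 1.40, and Cd59a to Cd55 stands at 5.14 or more.

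The rest of the pathway was described from a list of 60 further symbols, older names of some genes included, of which 31 had a row. Of these, 12 had 1 RPKM or more in every pool (38.7%, against 77.5% of all genes), with a median of means of 0.38 RPKM. The 31 include C2 and Calr, whose rows are doubtful as described above. Some neighbouring genes share exons in GENCODE M21. This holds for 46.9% of the exonic bases of C2, 79.5% of Cfb, 54.9% of Masp2 and 68.7% of Itgam. The annotation behind the values is not named in the sources used here. Whether the overlaps affected the counts was not tested, and the values of these genes are uncertain.

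Of the initiators, 1 of 9 (C2, with the jump given above) reached 1 RPKM in each pool. The lectin pathway genes were low, with Masp1 at 0.08, 0.06 and 0.06 RPKM, Masp2 at 0.35, 0.30 and 0.35, and the ficolin gene Fcna at 0.05, 0.04 and 0.10. In the alternative pathway, properdin (Cfp), which stabilises the enzyme that cleaves C3, had 11.34, 14.68 and 10.47 RPKM. It exceeded C3 12.8-fold (3.68 ± 0.21 on the log2 scale). Factor B (Cfb), the protease part of that enzyme, had 2.71, 2.69 and 2.68 RPKM, while factor D (Cfd), which activates it, had 0.01, 0.03 and 0.02. Of the terminal components, C6 had 2.15, 2.81 and 2.61 RPKM, C8g 0.94, 1.29 and 0.86, and C7 0.27, 0.23 and 0.30. C6 and C7 have symbols of the digit-bearing kind, as do Cd46, Lrp1 and the microglia marker Tmem119, given below. Cd59a, which acts on the pore they help to form, exceeded C6 4.10-fold.

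Regulators outside the 9 included the most abundant complement-related transcripts. Vitronectin (Vtn) and clusterin (Clu), secreted proteins that also keep terminal complexes out of membranes, had 437, 453 and 339 RPKM and 413, 439 and 275 RPKM in pools 1, 2 and 3. They exceeded Cd59a 38.0-fold and 34.4-fold. Both have other functions, and Clu is also in the Muller glia marker list. Of the membrane regulators, Susd4 (18.28, 19.13 and 16.10 RPKM) exceeded Cd59a 1.67-fold. Thrombomodulin (Thbd), an endothelial protein of clotting control that also limits complement, had 2.21, 1.90 and 1.37. Cr1l, the rodent regulator also called Crry, had 1.5, 1.89 and 1.45 RPKM, or 6.55-fold the level of Cd55. Cd46 had 0.25, 0.23 and 0.30.

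Receptors of complement fragments on immune cells were low. C3ar1 had 0.11, 0.09 and 0.13 RPKM, C5ar1 0.10, 0.14 and 0.10, and the integrin chains of complement receptor 3, Itgam and Itgb2, 0.35, 0.41 and 0.31 and 0.35, 0.35 and 0.19. Vsig4, a macrophage receptor for C3b, was listed at 0 in each pool. Of the 9 receptor and binding genes with a row, Lrp1 (12.24, 12.88 and 11.53 RPKM) and C1qbp (20.09, 26.64 and 18.17), which are broadly expressed and have other roles, were at 1 RPKM or more in each pool. The 9 include Calr, whose row is doubtful as described above.

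**Figure D3:**
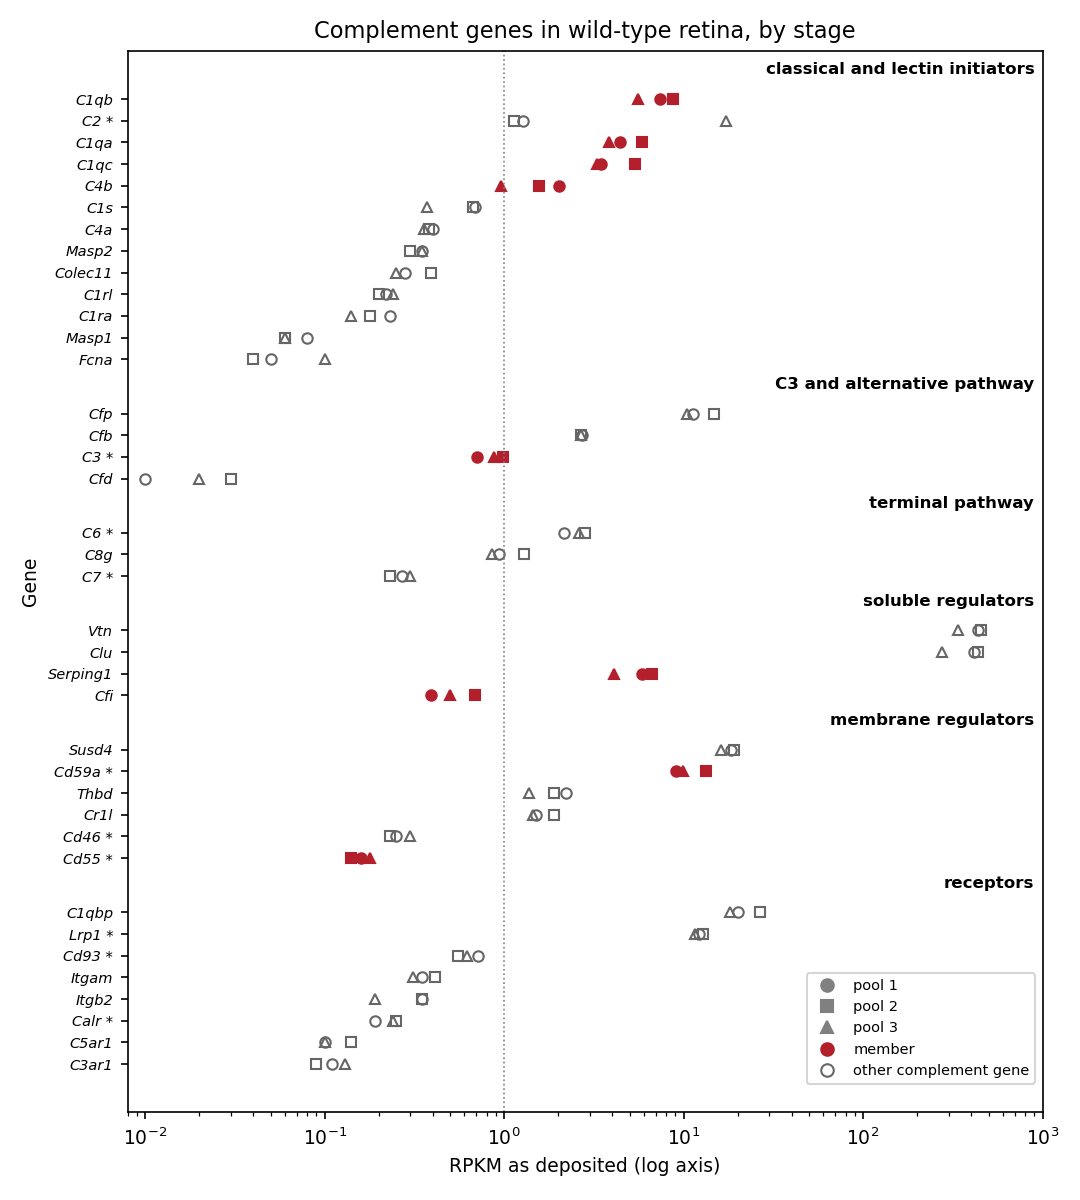
RPKM (horizontal axis, log scale) of complement genes by stage in 3 pools, with the 9 genes described here in red and an asterisk on symbols of the digit-bearing kind. Vtn and Clu stand at 275 RPKM or more in each pool, the immune-cell receptors below 1, and Vsig4, listed at 0, is not drawn; not every gene of the list is shown.

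The pools were then compared. None of the 9 genes passed the test for varying between pools more than genes of its abundance. Of the 9, 6 averaged at least 1 RPKM and were tested (C3, Cfi and Cd55 were below). With limma's robust prior and Benjamini-Hochberg adjustment over 12562 genes, 0 of 6 passed an adjusted p of 0.05, against 5.44% of all genes tested. Without symbols of the digit-bearing kind, a run chosen after seeing the data, 0 of 5 passed, against 1.11% of all genes. Adjusted p was 0.525 for C4b and 0.993 for C1qa, C1qb, C1qc, Serping1 and Cd59a. At an unadjusted threshold of 0.05 the count was 1 gene of these 6, C4b, against 8.37% of all genes, and with limma's non-robust prior it was 0. The unadjusted limma p of C4b was 0.0414, and its adjusted p ran from 0.104 (no scaling) to 0.987 (without pool 1) over the alternatives. SDs on the log2 scale were 0.19 for C1qa, 0.22 for C1qb, 0.27 for C1qc, 0.25 for Serping1, 0.20 for Cd59a and 0.47 for C4b. The median over all genes tested was 0.15. To pass, these 6 genes would have needed an SD between 0.65 and 0.82, so smaller differences between pools could not be called. With no filter on low values 9 of 9 were tested and 0 passed, with SDs of 0.18 for C3, 0.28 for Cfi and 0.18 for Cd55.

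After scaling, 5 of the 6 tested genes were highest in pool 2, against 35.0% of all genes, and 4 of 6 were lowest in pool 3, against 36.0%. C1qc was lowest in pool 3 without scaling and in pool 1 with it. The C1q chains are neighbouring genes for 1 protein and are not independent counts. Scaling removed shifts of -0.02, 0.13 and -0.10 in pools 1, 2 and 3 (log2, median of all genes). C3 was highest in pool 2 as deposited and in pool 3 after scaling. Cfi and Cd59a were lowest in pool 1 and highest in pool 2 under both, and Cd55 was lowest in pool 2 and highest in pool 3 under both.

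Microglia markers differed in their order over pools by how they were summarised. Their sum was highest in pool 2, as were the C1q chains, and their median deviation was highest in pool 1. Over the 9 of 15 markers averaging at least 1 RPKM, the median deviation on the log2 scale was 0.15, -0.01 and -0.13 in pools 1, 2 and 3. The mean of the chains stood at -0.04, 0.23 and -0.19. All 15 markers had a row, 8 of 15 had 1 RPKM or more in every pool, and none was at 0. The sum of all 15 was 32.7, 38.9 and 29.5 RPKM as deposited. Named markers were Csf1r (4.96, 3.55 and 3.34 RPKM), a growth factor receptor of microglia, Tyrobp (2.61, 3.95 and 2.25), an adaptor of their surface receptors, and Tmem119 (1.66, 1.43 and 0.97). The geometric mean of the C1q chains exceeded that of the 15 markers 3.35-fold, 3.72-fold and 3.09-fold (1.76 ± 0.13 on the log2 scale). Relative to Tyrobp the chains stood at 0.81 ± 0.09, and C1qb relative to Csf1r at 0.86 ± 0.37. Markers of other macrophages were lower, with 7 of 7 on the rows, none at 0 and a sum of 4.48, 5.44 and 4.67 RPKM, most of it from Lyve1, which lymphatic endothelium also expresses. Cd163 had 0.04, 0.06 and 0.03 and Mrc1 0.13, 0.11 and 0.13. The blood and leukocyte list had 6 of 9 members on the rows, with a sum of 1.91, 2.32 and 1.66 RPKM and Hba-a1 listed at 0. A globin row, Beta-s, was outside this list and averaged at least 1 RPKM. The list therefore does not measure how much blood RNA was present. The part of any of these cells in the C1q values was not tested.

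C4b, Serping1, C1qa and C1qb were lowest in pool 3 after scaling, at -0.46, -0.29, -0.17 and -0.25 from their means on the log2 scale. Of the markers of neighbouring tissues, those of connective tissue, pigment cells and skeletal muscle were also lowest there (medians of -0.27, -0.38 and -0.71). Those of lens were highest there (1.04), and those of cornea and conjunctiva were lowest in pool 1 (-0.32, against -0.16 in pool 3). Lists of cells within the retina were also lowest in pool 3, by less. They stood at -0.13 for microglia, -0.11 for Muller glia and astrocytes, -0.09 for vascular cells and -0.05 for rods. The list of other macrophages, with 1 member averaging at least 1 RPKM, was highest there (0.09). Fibroblast and connective tissue markers (10 of 10 with a row, none at 0) summed to 58.6, 59.3 and 34.3 RPKM as deposited. After scaling the sums were 59.6, 54.4 and 36.8, and the median given above rests on 7 of the 10. The matrix gene decorin (Dcn) had 10.72, 9.0 and 1.97 RPKM. Pigment epithelium and melanocyte markers (12 of 12, none at 0) summed to 568, 542 and 311 RPKM as deposited, with the melanosome gene Pmel at 62.68, 51.66 and 18.31. The members of the connective tissue list ranged in pool 3 from -1.41 (Dcn) to 0.16 (Ogn). The part of these tissues in the values of the 4 complement genes was not tested.

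**Figure D4:**
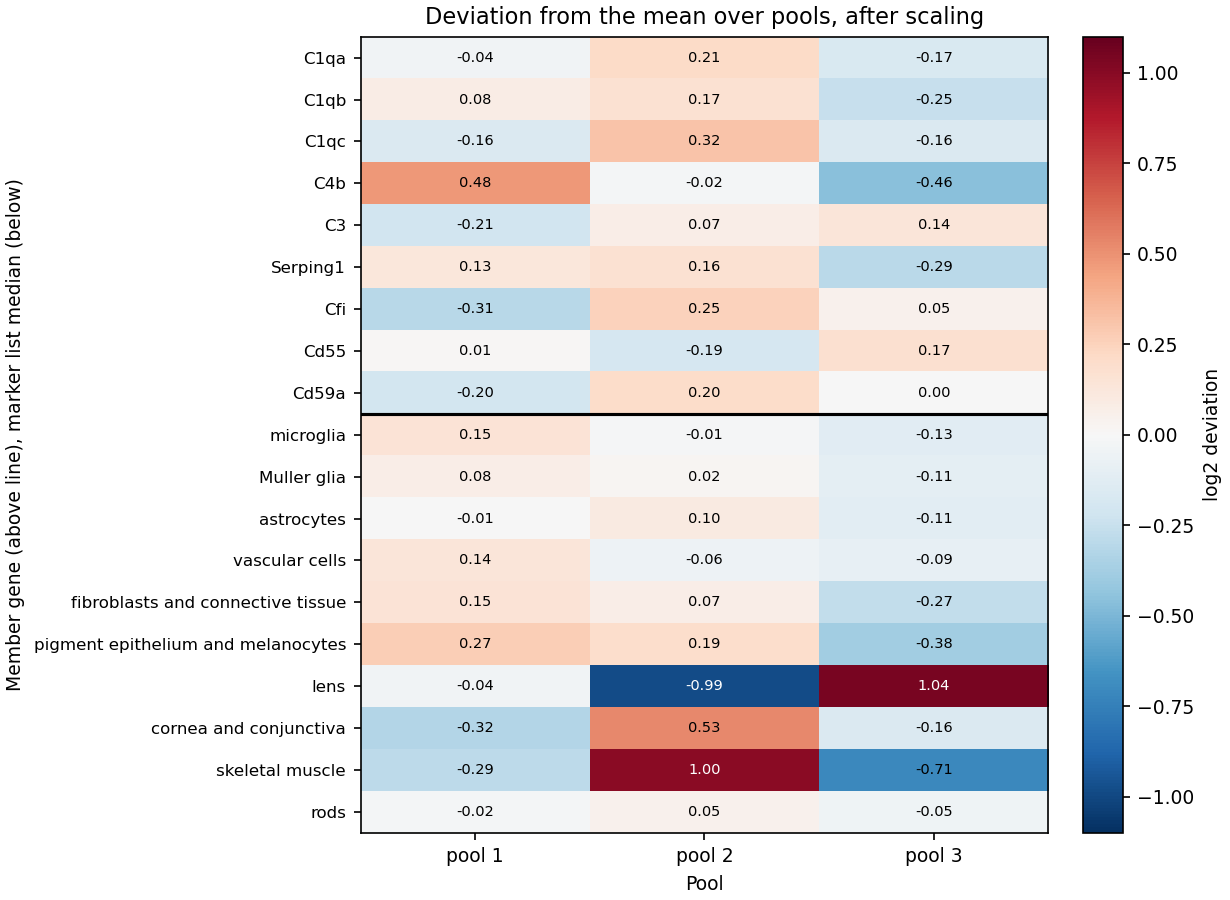
Log2 deviation of each complement gene (above the line) and of the median of each marker list (below it) from its mean over 3 pools, after scaling. Medians cover only list members averaging at least 1 RPKM. The C1q chains are highest in pool 2 (0.17 to 0.32), C4b runs from 0.48 in pool 1 to -0.46 in pool 3, and lens and muscle markers move by up to 1.04.

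The nearest profiles were sought among 82 marker genes averaging at least 1 RPKM, by root-mean-square difference of log2 deviations over 3 pools. With 3 points the values are a description only. For the mean C1q profile the nearest were the rod gene Pde6g (0.03), the astrocyte gene Gfap (0.06), and Rom1, Fbln1 and Tyrobp (0.07 each). For C4b they were Ptgds (0.09), Tmem119 and Col1a2 (0.12 each). For Serping1 they were Cldn5 (0.04), the tight junction gene of endothelium, Clu and Fbln1 (0.05 each). Both Cfi and Cd59a lay nearest to Ctss, a microglial protease (0.06 and 0.03), followed by Lyve1 and Cnga1 for Cfi and by Lyve1 for Cd59a. C3 lay nearest to the rod channel gene Cnga1 (0.03), then Ogn and Lyve1, and Cd55 to the endothelial receptor gene Kdr (0.03), then Aqp4 and Flt1.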

How the data were processed

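RNA of wild-type retina was sequenced by the authors in 3 pools of 5 mice, with 2 technical replicates each. The deposited values were taken as RPKM. That unit is inferred from the values, which would look alike as FPKM. The submitters' processing notes list mm9, GSNAP and HTSeq. The sources used here name neither the annotation nor any filter. Of 15468 rows, identical repeats were kept once (15465 genes). Depth is unknown, so no interval that needs it is given.

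Values were divided by trimmed-mean factors (0.983, 1.09 and 0.932, trimming 30% of log ratios and 5% of means at each end). Logs are log2(RPKM + 0.1). Variation between pools was tested with limma 3.58.1 (R 4.3.3) where the mean reached 1 RPKM, each variance against the robust trended prior in an F test, Benjamini-Hochberg adjusted at 0.05, and checked on simulated data. P-values measure the spread between these pools. Named by rule were the 9, complement genes whose mean reached 1 RPKM, leading markers and nearest profiles. Some genes under this rule are not reported here. Values of complement genes below that level, and of rows showing the symbol problem, were chosen for print after they were seen. The members and lists were chosen with earlier results of these data known. Coordinates are of GRCm38.p6, not of the build behind the values.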

Additional observations from a re-analysis of the deposited data

How the results depend on the processing

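None of the 9 genes was called as varying between pools, and every alternative run (pseudocount of 1, no scaling, no filter, a mean of 5 or more, non-robust prior, without digit-bearing symbols, and each pool left out) gave 0 calls by limma, on 3 to 9 genes tested. The count over all genes was 683. It was 0 with the non-robust prior (704 at an unadjusted p under 0.05), 403 with a mean of 5 or more, where fewer genes were tested, 202 without symbols that equal another followed by digits only, and 118 without those followed by a digit and any text, the last chosen after seeing the data. With a pool left out it ranged from 302 (without pool 2) to 480, with 434 without pool 3. The cause was not tested. The difference of regulators and activating genes (-1.13 on the log2 scale) was -0.66 with a pseudocount of 1, -0.72 by means and 0.45 without Cd55. Without C3, Cd55 and Cd59a, chosen after seeing the data, it was -1.25, and with a pool left out -1.17 to -1.08. All 8 neighbouring pairs of the order stayed separated except that 7 did without pool 2. Precision is limited by 3 pools and an unknown depth.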

Other observations

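Transcripts of genes for proteins with a C1q-type domain outside the complement pathway were also measured, a family looked at after its values were seen. Of 14 genes of the C1ql, C1qtnf and Cbln families with a row, 8 had 1 RPKM or more in every pool, against 77.5% of all genes. C1qb was exceeded in every pool by 5 of the 14, and its own mean stood at percentile 53.8 of all genes. C1ql1, a secreted synaptic organiser, had 129.81, 127.23 and 90.45 RPKM in pools 1, 2 and 3, and C1ql2 had 29.53, 29.72 and 21.31. C1ql3 had 12.22, 13.02 and 10.91 and C1qtnf4 29.39, 33.88 and 22.01. Among the cerebellins, which link synaptic membranes, Cbln2 had 9.23, 11.16 and 10.88 RPKM and Cbln1 4.49, 4.55 and 4.25. C1qtnf5 was listed at 0 in each pool. The pseudogene C4bp-ps1, named for the C4b-binding protein, had 2.70, 3.70 and 3.08 RPKM.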
